A study of Mus musculus with 9 samples.

Results

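MicroRNAs (miRNAs) of the miR-23, miR-27 and miR-24 families, which lower the output of the messenger RNAs they pair with, were measured in mouse liver after a toxic dose of acetaminophen (APAP), with and without dmPGE2, a methylated analog of prostaglandin E2. The 9 members were the rows of the deposited miRNA table that carry their names, out of 946 rows in all, and all 9 passed the filter on low counts that left 360 rows for testing. Of the members, 4 come from the a cluster (mmu-miR-23a-3p, mmu-miR-27a-3p, mmu-miR-27a-5p, mmu-miR-24-2-5p), 4 from the b cluster (mmu-miR-23b-3p, mmu-miR-27b-3p, mmu-miR-27b-5p, mmu-miR-24-1-5p), and mmu-miR-24-3p is made by both. The mouse prefix mmu is left out below. The set was proposed with earlier results of these libraries in view, among them a high miR-23a-3p after APAP alone, so values of APAP against Control are given below as a description with no test.

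Small RNA was sequenced from whole livers of wild-type C57 BL6 mice, 8 weeks old and about 20 g, in 3 groups of 3 libraries. Control mice received saline. APAP mice received 500 mg/kg APAP into the peritoneum, and dmPGE2+APAP mice received the same dose with 300 µg/kg dmPGE2 given 1 h before it, so dmPGE2 was measured on top of APAP only. Livers were taken 6 h after APAP. Whether libraries came from different mice is not stated, so the error behind each p-value is that between libraries and may be technical.

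A miRNA cluster is transcribed as 1 primary RNA that carries several hairpins. Each hairpin is cut by Drosha and Dicer into a short duplex, of which usually 1 strand (the guide) is kept and the other (the passenger) is degraded. The miR-23, miR-27 and miR-24 clusters have been studied in blood vessel formation, in immune cells and, for the b cluster, in TGF-beta signalling of the mouse fetal liver, while miR-27 targets include regulators of lipid metabolism and miR-24 targets include cell-cycle genes.

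In RefSeq on GRCm38.p6, the build known as mm10, the a cluster lies on the plus strand at chr8:84208518-84208921, a stretch of 404 bases with 3 hairpins. These hairpins overlap no other RefSeq gene than an antisense hairpin, and the bases between them were not checked. The b cluster lies on the plus strand at chr13:63300484-63301275, over 792 bases, inside the annotated span of Aopep, an aminopeptidase gene. The RefSeq gene list used here does not say whether that part of Aopep is exon or intron. The miR-23 and miR-27 hairpins are 79 bases apart in the a cluster and 154 in the b cluster, and the miR-27 and miR-24 hairpins are 56 and 423 bases apart.

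**Figure D1:**
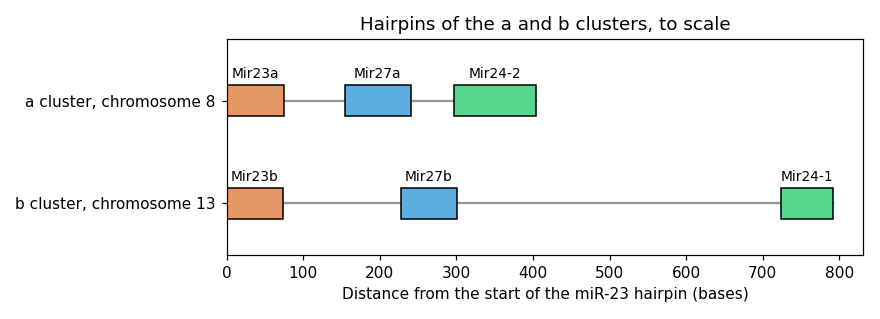
Hairpins of both clusters drawn to scale, with distance in bases from the start of the miR-23 hairpin on the x axis. The order of the hairpins is the same, and the a cluster spans 404 bases against 792 in the b cluster.

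A mature sequence was matched in RefSeq for 8 of the 9 members. The sequences below show what the a and b products share, with the seed (bases 2 to 8, which pairs with targets) in capitals.
miR-23a-3p: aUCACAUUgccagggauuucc
miR-27a-3p: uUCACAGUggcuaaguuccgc
miR-27b-3p: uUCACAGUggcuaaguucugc
miR-24-3p: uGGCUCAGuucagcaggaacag
miR-24-2-5p: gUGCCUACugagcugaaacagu
miR-24-1-5p: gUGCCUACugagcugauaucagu
miR-27a-5p: aGGGCUUAgcugcuugugagca
miR-27b-5p: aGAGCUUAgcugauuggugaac

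The guides miR-27a-3p and miR-27b-3p share the seed UCACAGU and differ by the single substitution C19U (positions from 1 at the 5′ end, miR-27a-3p first). No other of the 1679 mature names with a RefSeq sequence here carries that seed. Not every measured row, miR-23b-3p among them, has such a sequence. Compared base by base without gaps, their passengers differ at 8 positions. An alignment with gaps, which could lower that count, was not made. 1 of the differences is in the seed (G3A), so miR-27a-5p and miR-27b-5p have different seeds. miR-24-2-5p and miR-24-1-5p share the seed UGCCUAC and their first 16 bases. The seed UCACAUU of miR-23a-3p differs from that of its cluster neighbour miR-27a-3p by U7G.

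The miR-27 and miR-24 hairpins are shown because the results below turn on their arms, with the mature strands in capitals.
Mir27a: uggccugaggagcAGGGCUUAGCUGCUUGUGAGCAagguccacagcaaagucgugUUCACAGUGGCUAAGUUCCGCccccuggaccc
Mir27b: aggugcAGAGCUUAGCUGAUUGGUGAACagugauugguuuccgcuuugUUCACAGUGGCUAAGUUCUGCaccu
Mir24-2: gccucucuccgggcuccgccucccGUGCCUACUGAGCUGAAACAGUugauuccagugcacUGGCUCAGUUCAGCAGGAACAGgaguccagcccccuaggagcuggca
Mir24-1: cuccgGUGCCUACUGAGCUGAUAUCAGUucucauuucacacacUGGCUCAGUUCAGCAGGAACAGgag

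Both miR-24 hairpins give the same miR-24-3p, so the 69233 reads of that row cannot be divided between the clusters, and only the 5p strands tell the loci apart. The miR-24 rows also have antisense doubles. The hairpins of miR-3074 lie on the opposite strand of the same bases, and 20 of the 22 bases of miR-24-3p are covered by miR-3074-5p, shown here with the covered part in capitals.
miR-24-3p: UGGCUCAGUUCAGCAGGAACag
miR-3074-5p: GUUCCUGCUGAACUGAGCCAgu

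The table lists 69142 reads for miR-3074-5p against 69233 for miR-24-3p, and the rows differed by 2 to 24 reads in each of the 9 libraries (at most 0.175%). The pair of miR-24-2-5p (4654 reads) and miR-3074-2-3p (4621) differed by 0 to 9 reads, and miR-24-1-5p (355) and miR-3074-1-3p (343) by 0 to 3. The strand setting of the counting is not given in the sources used here, so sense and antisense products cannot be told apart. Likewise, reads could be split between the near-identical rows of miR-27a-3p and miR-27b-3p. The Mir23b hairpin holds a stretch nearly identical to miR-23a-3p, so the same limit applies to the miR-23-3p rows. The paralog rows were therefore also tested as sums.

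Libraries held between 1038799 reads (dmPGE2+APAP replicate 2) and 10483460 reads (Control replicate 3), and the members made up 0.929% to 2.28% of them. Levels are given as CPM, reads scaled to a common library size with edgeR's TMM factors, and the mature strands are of nearly 1 length (21 to 23 bases). The 6 hepatocyte miRNAs listed as a check of the tissue were all present and summed to between 328508 and 524827 CPM. In whole liver, fewer cells of a type and less miRNA per cell cannot be told apart.

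Levels of the members spanned 3 orders of magnitude. miR-27b-3p was the most abundant, at a mean of 10359 CPM over the 9 libraries, and it held between 72.4% and 80.1% of the members' reads in every library. miR-24-3p (1270.1 CPM) and miR-27a-3p (1163 CPM) came next. By group mean, miR-24-3p was above in Control (1162 ± 118 against 807 ± 257 CPM, SD, n = 3) and in APAP (1251 ± 139 against 1176 ± 309). In dmPGE2+APAP miR-27a-3p was above (1505 ± 573 against 1398 ± 201). That order rested mainly on replicate 2, the shallowest library (2107 against 1596 CPM). Replicate 3 was near balance (1444 against 1403), and in replicate 1 miR-24-3p was above (1194 against 965). miR-23b-3p (348 CPM) and miR-23a-3p (296 CPM) followed and overlapped within each group. Below them stood miR-24-2-5p (88.6 CPM), miR-27a-5p (19.9 CPM), miR-27b-5p (11.1 CPM) and miR-24-1-5p (7.02 CPM), the last of these resting on as few as 16 reads in a library.

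The members varied to different degrees. From the lowest to the highest library the level rose 4.12-fold for miR-27a-3p, 3.95-fold for miR-23a-3p and 2.62-fold for miR-23b-3p, against 2.10-fold for miR-27b-3p and 1.54-fold for miR-24-3p. The low strands miR-24-1-5p, from as few as 16 reads, and miR-27a-5p varied 3.21-fold and 2.21-fold, and miR-27b-5p and miR-24-2-5p 1.89-fold and 1.85-fold.

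**Figure D2:**
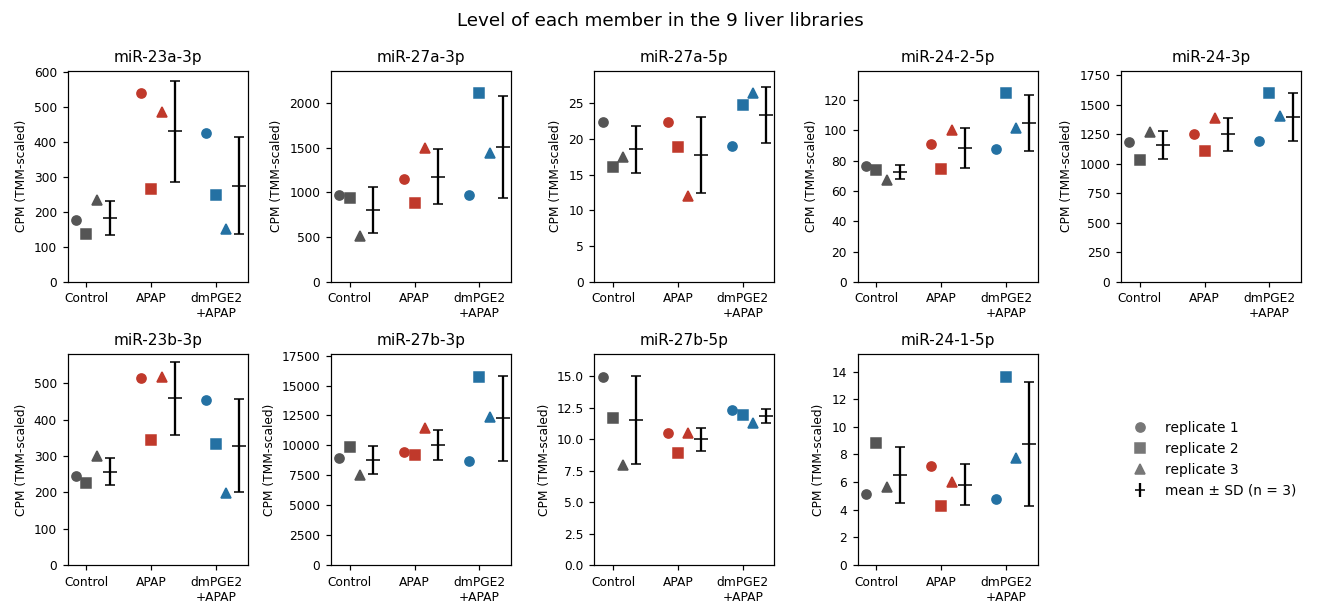
Level of each member (y axis, TMM-scaled CPM, starting at 0) in the 9 libraries by group, with the a-cluster rows and miR-24-3p above and the b-cluster rows below. Points are libraries, and bars give the mean ± SD (n = 3). miR-23a-3p and miR-23b-3p have all APAP points above all Control points, and miR-27a-3p and miR-27b-3p have their highest point in dmPGE2+APAP replicate 2.

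The a-cluster and b-cluster rows held unequal shares of reads, and not in the same direction for each product. Between 37.6% and 51.2% of miR-23-3p reads lay in the miR-23a-3p row, so these rows were near balance. Of miR-27-3p reads only 6.37% to 11.8% were listed under miR-27a-3p. How the counting divided reads between the near-identical rows of either pair is not known. Of miR-24-5p reads, in contrast, 89.3% to 94.8% were miR-24-2-5p from the a cluster. The passenger row miR-27a-5p held 53.2% to 70.1% of miR-27-5p reads, the reverse of its guide.

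The 3 Control libraries had 42.0%, 37.6% and 43.7% of their miR-23-3p reads in the miR-23a-3p row. The APAP libraries had 51.2%, 43.6% and 48.5% there, and those given dmPGE2 first had 48.4%, 42.7% and 43.3%. The groups overlapped, and the exact 95% binomial intervals, which cover counting error only, were at widest 38.9% to 46.5% (dmPGE2+APAP replicate 2). The within-library log2 ratio of miR-23a-3p to miR-23b-3p averaged -0.52 ± 0.19 for Control (SD, n = 3), -0.13 ± 0.22 for APAP and -0.30 ± 0.18 for dmPGE2+APAP. It is free of library scaling. A two-sided exact permutation test gave p = 0.2 for dmPGE2+APAP against APAP and p = 0.3 against Control.

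For miR-27a-3p over miR-27b-3p the log2 ratio averaged -3.49 ± 0.35 over Control libraries, -3.12 ± 0.23 over APAP libraries and -3.06 ± 0.14 over dmPGE2+APAP libraries (SD, n = 3). All 3 dmPGE2+APAP libraries lay above all 3 Control libraries, with a mean difference of 0.44 and an exact two-sided permutation p = 0.1, the smallest that 3 against 3 libraries allow. Of 12 such tests on 6 ratios, exact p-values adjusted by Benjamini-Hochberg ran from 0.8 to 1. With 3 libraries a group none of these tests could have passed 0.05, so they do not tell whether the ratios differed.

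**Figure D3:**
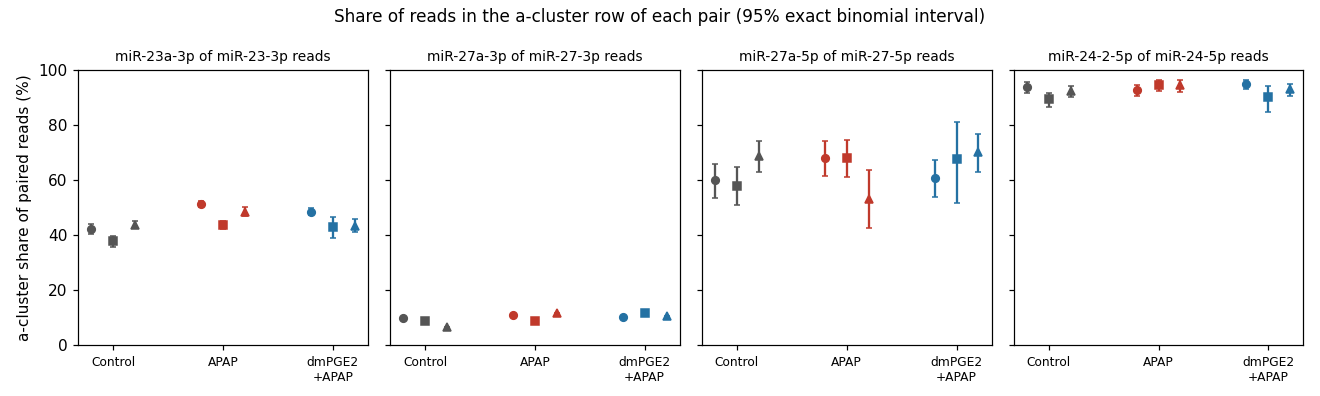
Share of reads in the a-cluster row of each pair (y axis, percent) by library, with exact 95% binomial intervals for counting error. miR-23 lies between 37.6% and 51.2%, miR-27-3p between 6.37% and 11.8%, miR-27-5p between 53.2% and 70.1% and miR-24-5p between 89.3% and 94.8%.

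The guide row exceeded the passenger row for both miR-27 hairpins, but by different factors. These factors rest on how the counting divided reads between the near-identical guide rows, which is not known. miR-27b-3p outnumbered miR-27b-5p 778-fold in saline-treated mice (geometric mean of 3 libraries), 996-fold after APAP and 991-fold when dmPGE2 came first. miR-27a-3p outnumbered miR-27a-5p 42.0-fold, 66.6-fold and 61.5-fold. The groups overlapped for either hairpin, and an exact two-sided permutation test of dmPGE2+APAP against Control gave p = 0.3 for the miR-27a arms and p = 0.4 for the miR-27b arms.

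After APAP alone, both miR-23 rows were higher than in Control, and the groups overlapped for each of the 7 other members. miR-23a-3p, a guide strand of the a cluster, had 177, 137 and 233 CPM in Control livers. The APAP livers had 540.1, 266 and 488 CPM. miR-23b-3p, its counterpart in the b cluster, had 244, 227 and 299.7 CPM in Control livers against 515, 343 and 519 CPM after APAP. For each row every APAP library lay above every Control library, with replicate 2 the lowest of the APAP group. The log2 fold change, from a fit of all 360 miRNAs with edgeR's quasi-likelihood model, was 1.24 (SE 0.35) for miR-23a-3p and 0.84 (SE 0.27) for miR-23b-3p. With the paralog rows summed, the Control libraries averaged 435 ± 79.9 CPM of miR-23-3p and the APAP libraries 894 ± 255 (SD, n = 3), a log2 value of 1.04 with SE 0.30.

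The guides next to miR-23 on the same transcripts had smaller log2 values. miR-27a-3p held 973, 937 and 511 CPM under saline and 1147, 883 and 1498 CPM under APAP (log2 0.54, SE 0.30). miR-27b-3p held 8977, 9843 and 7515 CPM under saline and 9415, 9215 and 11491 CPM under APAP (log2 0.19, SE 0.22). Both groups overlapped in either row. miR-24-3p held 1184, 1035 and 1267 CPM under saline and 1252, 1112 and 1389 CPM under APAP (log2 0.11, SE 0.19).

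The minor strands also overlapped between APAP and Control. miR-24-2-5p, the strand that reports the a cluster, had a log2 value of 0.29 (SE 0.21). miR-27a-5p stood at -0.06 (SE 0.28), miR-27b-5p at -0.20 (SE 0.29) and miR-24-1-5p at -0.17 (SE 0.38), and with library totals in place of TMM these 3 values became 0.16, 0.07 and 0.12. Library totals moved the median of all 360 rows from -0.05 to 0.20, so the signs of these 3 rest on the scaling. The fit called 0 of 9 members at an adjusted p of 0.05, where it called 0.833% of all rows. The groups did not overlap in 2 of 9 members and in 16.7% of all rows, 6 of 9 log2 values lay above 0 (44.7% of all rows), and the members' median was 0.19. As the set was chosen from this comparison, nothing is read from these counts. In the fit with paralog rows summed, 0 of 3 sums and 0.840% of rows were called.

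Marker rows of other cell types were compared between the same libraries, and none of the lists had a row called in APAP against Control. The 3 red-cell miRNAs (miR-451a, miR-144-3p and miR-144-5p) summed to between 394 and 483 CPM in Control and between 632 and 1241 CPM in APAP, with 3 of 3 log2 values above 0. The 4 myeloid miRNAs (both strands of miR-223 and miR-142a) summed to between 124 and 233 CPM in Control and between 177 and 319 in APAP, with 4 of 4 log2 values above 0 and a median log2 of 0.59, and these sums overlapped between the groups. The lymphocyte miRNAs (miR-150 and miR-342) summed to between 14.1 and 33.3 CPM in Control and between 20.6 and 33.1 in APAP, with 1 of 2 tested rows above 0. The 6 hepatocyte miRNAs summed to between 375354 and 524827 CPM in Control and between 328508 and 388171 in APAP, with 1 of 6 log2 values above 0 and a median of -0.24. Log2 values above 0 numbered 2 of 2 in the endothelial list (both strands of miR-126a, median 0.13). The mesenchymal list had 4 of 8 above 0 (median 0.05), and the cholangiocyte and epithelial list 3 of 5 (median 0.00). No listed marker found in the table was at 0, and the part of these cell types in the miR-23 values was not tested.

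With dmPGE2 before APAP, no member passed the test against APAP alone. This comparison shares its APAP libraries with the one from which the set was proposed, so its values are not independent of that choice. The miR-23 rows had negative log2 values and the 7 other members positive ones. miR-23a-3p held 426, 249 and 151 CPM in dmPGE2+APAP, so replicate 1 lay among the APAP libraries and replicate 3 within the Control range. Its log2 change from APAP was -0.64 (SE 0.35), and the edgeR p adjusted by Benjamini-Hochberg over 360 rows was 0.785. miR-23b-3p held 454, 334 and 198 CPM, in the same order over the libraries, but its replicate 3 lay below the Control range (227 to 299.7 CPM). Its log2 change from APAP was -0.48 (SE 0.27), with an edgeR adjusted p of 0.797.

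Both values depended on single dmPGE2+APAP libraries. Without dmPGE2+APAP replicate 1 they became -1.11 and -0.79, and without replicate 3 they became -0.32 and -0.19. The sum of both miR-23 rows gave -0.55 (SE 0.30), with an edgeR adjusted p of 0.799. Red-cell miRNAs summed to between 303 and 334 CPM in this group, below all APAP libraries. Against APAP, 0 of their 3 log2 values lay above 0 (median -1.32), and 1 row was called lower. Myeloid miRNAs summed to between 153 and 238 CPM, with 0 of 4 values above 0 (median -0.75). Values above 0 numbered 4 of 6 for hepatocyte, 1 of 2 for endothelial and 1 of 2 for lymphocyte rows. They numbered 6 of 8 for mesenchymal and 5 of 5 for cholangiocyte and epithelial rows. The part of these cell types in the miR-23 values was not tested.

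The miR-27 guides were spread widely in dmPGE2+APAP. miR-27a-3p held 965, 2107 and 1444 CPM, with a log2 value against APAP of 0.35 (SE 0.30). miR-27b-3p held 8661, 15744 and 12372 CPM, with 0.29 (SE 0.22). In both rows replicate 1 was the lowest and replicate 2 the highest, whereas in both miR-23 rows replicate 1 was the highest and replicate 3 the lowest. Both edgeR adjusted p-values were 0.896.

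miR-24-3p held 1194, 1596 and 1403 CPM in dmPGE2+APAP, in the same order over the libraries as the miR-27 guides, with a log2 value against APAP of 0.16 (SE 0.19). miR-24-2-5p had 91.3, 74.2 and 100.2 CPM in APAP and 87.8, 124 and 102 CPM in dmPGE2+APAP (log2 0.23, SE 0.21). Among the low strands, miR-27a-5p averaged 17.7 ± 5.28 CPM after APAP and 23.3 ± 3.90 CPM with dmPGE2 (SD, n = 3). miR-24-1-5p ranged from 4.25 to 7.20 CPM and from 4.81 to 13.6 CPM. Both rows overlapped between the groups. miR-27b-5p ranged from 8.90 to 10.5 CPM in APAP and from 11.2 to 12.3 in dmPGE2+APAP, without overlap, but its log2 value was only 0.25 (SE 0.30). With 14 reads in dmPGE2+APAP replicate 2, the exact 95% counting interval of that library alone ran from 6.52 to 20.0 CPM.

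Against APAP alone 0 of 9 members were called, and 0.278% of all rows (1 of 360, a fall). Groups did not overlap in 1 of 9 members and in 13.9% of all rows, a share near the background. In the same comparison 7 of 9 log2 values lay above 0 (50.0% of all rows), with a median of 0.25 for the members and 0.00 for all rows. With paralog rows summed, 0 of 3 sums and 0.280% of rows were called.

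Against Control, the dmPGE2+APAP libraries had positive log2 values in 9 of 9 members (46.1% of all rows), with a median of 0.35 against -0.03 for all rows, but 0 of 9 were called (0.278% of all rows). The comparison shares its Control libraries with that of APAP. The highest value belonged to miR-27a-3p, whose level went from 807 ± 257 CPM under saline to 1505 ± 573 CPM with both agents (SD, n = 3). This was a log2 value of 0.90 (SE 0.30, edgeR adjusted p 0.277). The groups overlapped, because dmPGE2+APAP replicate 1 (965 CPM) lay below Control replicate 1 (973 CPM). Without dmPGE2+APAP replicate 2, the shallowest library, the log2 value was 0.65 and the edgeR adjusted p 0.701.

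miR-24-2-5p, which shares the a-cluster transcript with miR-27a-3p, was the 1 member of 9 whose groups did not overlap (14.7% of all rows). It had 76.4, 73.8 and 67.3 CPM in Control, all below the lowest dmPGE2+APAP library, and its log2 value was 0.52 (SE 0.21) with an edgeR adjusted p of 0.336. miR-27b-3p had 0.48 (SE 0.22, edgeR adjusted p 0.429). Without dmPGE2+APAP replicate 2 these 2 values became 0.45 and 0.33. With library totals in place of TMM they became 0.77 and 0.76, and that of miR-27a-3p 1.20, while the median of all rows moved to 0.19.

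The other members also missed the threshold against Control. miR-23a-3p stood at log2 0.60 (SE 0.35, edgeR adjusted p 0.517) and miR-23b-3p at 0.35 (SE 0.27). Without dmPGE2+APAP replicate 1 they became 0.13 and 0.06, and without replicate 3 they became 0.93 and 0.66. miR-24-3p had 0.27 (SE 0.19), miR-27a-5p 0.32 (SE 0.28), miR-24-1-5p 0.27 (SE 0.39) and miR-27b-5p 0.04 (SE 0.30), whose sign turned under 3 alternatives. With paralog rows summed, miR-27-3p had 0.54 (SE 0.23, edgeR adjusted p 0.345), and 0 of 3 sums and 0.560% of rows were called.

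**Figure D4:**
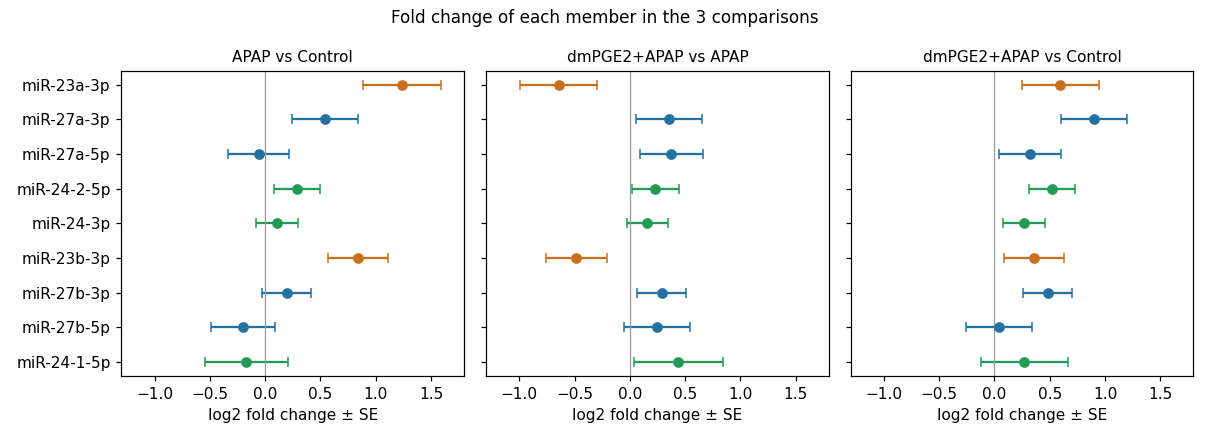
Log2 fold change ± SE (x axis) of each member (y axis) in the 3 comparisons, from edgeR's fit of all 360 miRNAs, with miR-23 in orange, miR-27 in blue and miR-24 in green. The miR-23 rows stand at 1.24 and 0.84 after APAP and at -0.64 and -0.48 with dmPGE2, while the other members lie at or above 0.16 in the latter comparison. None passed an adjusted p of 0.05.

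Over the 9 libraries, the profile of each miR-23 row was nearer to its paralog than to the other ranked products of its own cluster. Likeness was taken as the root mean square (RMS) difference between log2 CPM values, each centred on its own mean, over the 206 rows at or above 10 CPM. miR-24-1-5p of the b cluster (7.02 CPM) fell below that cut and was not ranked. Of the 205 other rows, miR-23b-3p was the nearest to miR-23a-3p (RMS difference 0.23), although its hairpin lies on another chromosome. How the counting divided reads between these near-identical rows is not known, and its part in their likeness was not tested. The neighbours of miR-23a-3p on its own transcript ranked 37 (miR-24-2-5p, 0.67), 133 (miR-27a-3p, 0.82) and 154 (miR-27a-5p, 0.85). For miR-23b-3p the neighbours miR-27b-5p and miR-27b-3p ranked 107 and 112. miR-24-3p, made by both clusters, ranked 44 (0.67) for miR-23a-3p and 32 (0.49) for miR-23b-3p. A row that did not vary would differ from a miR-23 row by that row's own RMS deviation. This was 0.69 for miR-23a-3p and 0.48 for miR-23b-3p, so differences near these values show no likeness.

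The ratio of miR-27a-3p to miR-23a-3p is given as a description of single libraries, was chosen after its values were seen and overlapped between all groups. It was 5.49, 6.85 and 2.19 in the Control libraries. The APAP libraries had 2.12, 3.32 and 3.07, and those with dmPGE2 before APAP had 2.27, 8.45 and 9.55. Control replicate 3 had the highest miR-23a-3p and the lowest miR-27a-3p of its group, and dmPGE2+APAP replicate 3 had the lowest miR-23a-3p of its group with miR-27a-3p above its Control range. Since the ratio is taken within a library, neither depth scaling nor TMM enters it.

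**Figure D5:**
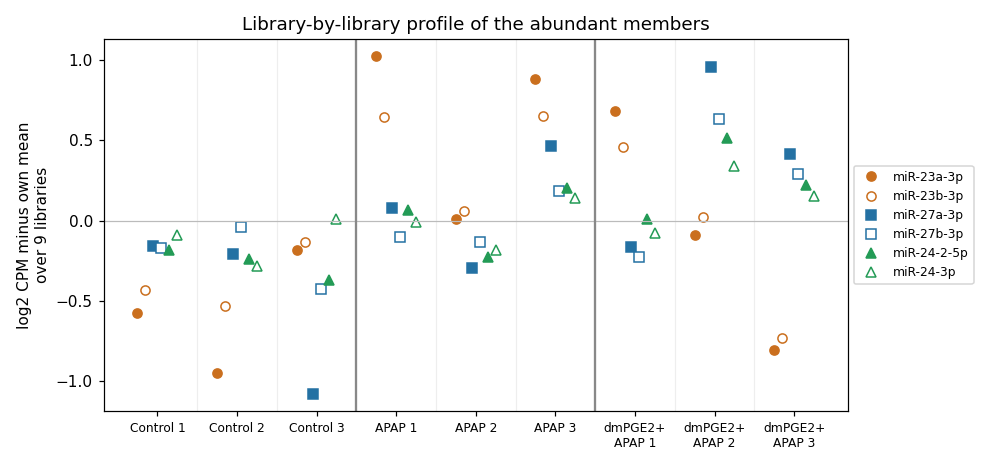
Log2 CPM minus the row's own mean over 9 libraries (y axis) for the 6 most abundant distinct member rows, in each library (x axis). Orange miR-23a-3p and miR-23b-3p points lie next to each other in most libraries, while blue miR-27 and green miR-24 points form another group that lies below them in APAP replicate 1 and above them in dmPGE2+APAP replicates 2 and 3.

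The miR-27-3p rows and the ranked miR-24 rows were nearer to each other than to miR-23. Rows that vary little also have small differences to each other. The RMS deviation from the own mean was 0.18 for miR-24-3p, 0.27 for miR-24-2-5p and 0.30 for miR-27b-3p, against 0.54 for miR-27a-3p. For miR-27a-3p, miR-27b-3p ranked 5 (RMS difference 0.28) and miR-24-2-5p ranked 8 (0.31) of 205. For miR-24-2-5p, the nearest row besides its antisense double was miR-27b-3p (0.13), a product of the other cluster. For miR-24-3p, miR-24-2-5p ranked 8 (0.15) and miR-27b-3p 26 (0.21). However, miR-27a-3p ranked only 144 (0.45) there, close to miR-23b-3p at 157 (0.49).

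The nearest rows outside the set were named by a fixed rule. For miR-23a-3p they were let-7d-3p (0.42), miR-652-3p (0.46) and miR-328-3p (0.46), and for miR-23b-3p let-7d-3p (0.26), miR-328-3p (0.30) and miR-30b-5p (0.37). For miR-27a-3p they were miR-126b-5p (0.21), miR-378c (0.21) and miR-872-5p (0.26), and for miR-27b-3p miR-145a-3p (0.12), miR-203b-5p (0.14) and miR-872-5p (0.16). For miR-24-3p they were miR-497a-5p (0.07), miR-152-3p (0.09) and miR-126a-3p (0.12), and for miR-24-2-5p miR-126a-3p (0.15), miR-130a-3p (0.16) and miR-145a-3p (0.16). For miR-27a-5p they were miR-29c-3p (0.25), miR-126a-3p (0.26) and miR-30b-3p (0.28), and for miR-27b-5p miR-29c-3p (0.17), miR-148b-3p (0.17) and miR-99b-3p (0.18). These distances are a description over 9 libraries that differ in treatment and in depth. Low depth adds more counting error to the low strands than to the abundant rows. In dmPGE2+APAP replicate 2, miR-27b-5p had 14 reads and miR-27b-3p had 18476.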

How the data were processed

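The authors deposited 1 table with whole-number read counts per mature miRNA and library, per the file headers, and TPM values that the authors scaled to each library's total with no length term, used for 1 alternative only. The submitters' processing notes name Bowtie and mm10. For the counting tool, the annotation and the strand setting, the sources used here give nothing. Column prefixes for APAP and PGE2_APAP match the labels. The 3 count columns that start with BC match no title and were assigned to Control as the 1 group without columns, and their numbers only name them. Their 3 TPM columns were not used.

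Counts were fitted in R 4.3.3 with edgeR 4.0.16 (TMM, filterByExpr with minimum count 10 and minimum total 15, robust quasi-likelihood test). All 9 libraries and 3 group means entered, with Benjamini-Hochberg adjustment over 360 rows at 0.05. SEs come from the F statistic. The scripts were tested on simulated data. Ratios used counts plus 0.5 and exact permutation tests. Likeness used log2 CPM with a prior count of 2, naming the 3 nearest rows outside the set. DESeq2 1.42.0 and limma 3.58.1 served as alternatives. Members and lists were chosen with earlier results of these data known. Sequences are from RefSeq (GRCm38.p6).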

Additional observations from a re-analysis of the deposited data

How the results depend on the processing

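Against Control, APAP alone gave 0 called members in the reported fit and 1 (miR-23a-3p) with DESeq2, with no filter on low counts and in a fit restricted to both groups. Leaving out single libraries gave 0 to 1 members (1 without the second APAP library, or without the first or the third dmPGE2+APAP library) and 0 to 1 family sums (the miR-23-3p sum without dmPGE2+APAP replicate 1). As this comparison chose the set, these calls are no support. Its log2 values ranged over 16 alternatives from 1.06 to 1.502 for miR-23a-3p and from 0.74 to 1.09 for miR-23b-3p. Both comparisons with dmPGE2+APAP gave 0 members and 0 family sums under every alternative run. In APAP against Control, values crossed 0 for miR-27a-5p (-0.24 to 0.16), miR-27b-5p (-0.49 to 0.08) and miR-24-1-5p (-0.35 to 0.12). In the comparisons with dmPGE2+APAP, miR-27b-5p against Control was the 1 value that turned sign, to -0.034 with no filter, -0.11 after thinning to equal depth and -0.14 without Control replicate 3 (-0.14 to 0.37 over single libraries left out). The deposited TPM values were tried for dmPGE2+APAP against APAP only and not run against Control, whose TPM columns were not used. Calls over all rows ranged from 0 to 13 (3 reported) after APAP, from 0 to 9 (1 reported) for dmPGE2+APAP against APAP and from 0 to 2 (1 reported) against Control.

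The replicate block was fitted for dmPGE2+APAP against APAP, since the Control columns match no numbered sample. It gave 0 called members, log2 -0.70 for miR-23a-3p (edgeR adjusted p 0.601) and 1 rise and 1 fall over all rows. Same-numbered libraries correlated at 0.17, -0.095 and 0.12 in their deviations, and differently numbered ones at -0.28 to 0.15. With 3 libraries a group, these values do not tell whether same-numbered libraries share more than a number. Depth limits the low strands most, with 14 to 29 reads in dmPGE2+APAP replicate 2.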

Other observations

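The passenger strands of the miR-23 hairpins were nearly absent. miR-23a-5p had 1 read in all 9 libraries together and miR-23b-5p had 18, against 16523 and 19412 reads for their guides, and neither passed the filter on low counts.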
